A study of Mus musculus with 12 samples.

Results

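The receptors and first signalling steps of the interferon pathway were examined in livers with and without Hsd17b13. The 9 genes are Ifnar1, Ifnar2, Ifngr1, Ifngr2, Il10rb, Jak1, Jak2, Tyk2 and Socs1. They were chosen by name for their role, with earlier results of these data known. All 9 were found among the 20143 genes of the deposited table. The study sequenced liver RNA of 6 wild-type mice (WT) and 6 Hsd17b13-KO mice (KO), 1 library per mouse, with mice numbered 1 to 6 in each group. Both groups ate the same diet, CDAA-HFD, which lacks choline, is rich in fat and leads to a fatty and scarred liver. They were 8 to 10 weeks old at its start and were fed it for 12 weeks. No mouse here had another diet, so every value describes liver on this diet and the groups are compared by genotype label. The labels do not say how the knockout was made, and whether the groups differ in more than Hsd17b13 was not tested. Hsd17b13 encodes an enzyme of hepatocyte lipid droplets. The single comparison, KO against WT, asks how interferon signalling genes differ between the genotypes on this diet.

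Interferons act through paired receptor chains that hold Janus kinases on their inner side. IFNAR1 and IFNAR2 form the receptor of type I interferons and carry TYK2 and JAK1, while IFNGR1 and IFNGR2 form the receptor of interferon-gamma and carry JAK1 and JAK2. IL10RB is the shared second chain of the receptors for interleukin-10, interleukin-22 and type III interferons and binds TYK2. The activated kinases phosphorylate STAT proteins, which enter the nucleus, and one of the genes they switch on is Socs1, whose product binds the kinases and shuts the signal down.

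In these livers the KO means of the receptor chains and kinases lay between 0.866-fold and 1.03-fold of the WT means. The inhibitor Socs1 was higher in every KO mouse than in any WT mouse. Socs1 was at 1.22 ± 0.264 CPM (counts scaled to library size; mean ± SD, n = 6) in WT and 2.13 ± 0.432 CPM in KO, a 1.75-fold ratio of means. None of the 9 genes passed the test across all genes, Socs1 included (limma adjusted p = 0.0829). The other 8 had 95% intervals of the difference that stayed between 0.782-fold and 1.19-fold. Only that of Ifngr1, from 0.782-fold to 0.967-fold and not adjusted for the number of genes, left out equality.

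Each library's CPM values sum to 1000000. From the step between low values, 1 CPM stood for 46.3 to 77.9 counts, so the 8 receptor and kinase genes rested on at least 995 counts in each library, with a counting error of at most 3.17%. Hsd17b13 itself averaged 347 ± 36.0 CPM in WT mice and 1.18 ± 0.181 in KO mice, and all 12 libraries followed their labels. Hepatocyte markers (6 genes) summed to 13334 to 18160 CPM over the libraries. On the mean log2 level of 11 type I interferon targets, WT mice spanned 4.14 to 5.29. KO mice 1 and 3, at 5.01 and 4.35, lay within that span, whereas the other 4 KO mice, at 5.56 to 6.52, lay above it. On 12 interferon-gamma targets WT mice spanned 4.95 to 5.56, and only KO mouse 3, at 5.34, lay within that span, with KO mouse 1 above it at 5.65.

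The order of the 9 genes was compared per kilobase (kb) of merged exons, since longer transcripts collect more counts. Jak1, the kinase shared by both interferon receptors, stood first at 25.6 ± 1.02 CPM per kb over the 12 mice. Ifngr1, the ligand-binding chain for interferon-gamma, followed at 16.8 ± 1.89. Ifnar2, the high-affinity chain for type I interferons, was at 14.8 ± 0.948 CPM per kb. Ifngr2 was at 14.4 ± 1.78 and Ifnar1 at 12.0 ± 0.713. The lower group held Il10rb at 7.07 ± 0.813, Jak2 at 6.45 ± 0.766 and Tyk2 at 6.35 ± 0.456. Socs1 came last at 0.576 ± 0.202 CPM per kb.

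Most neighbours in this order had a mean within-mouse log2 ratio that differed from 0, and 2 of the 8 pairs did not. In an exact two-sided sign-flip permutation test within mice, adjusted over the 8 pairs, Ifnar2 and Ifngr2 were not separated (adjusted p = 0.545, Ifnar2 higher in 6 of 12 mice). Jak2 and Tyk2 were not separated either (adjusted p = 0.844, Jak2 higher in 5 of 12). Jak1 exceeded Ifngr1 in 12 of 12 mice by 0.62 ± 0.15 on the log2 scale per kb (adjusted p = 0.0013, whose raw value is the smallest that the sign flips allow). Tyk2 exceeded Socs1 in 12 of 12 mice by 3.54 ± 0.50 (adjusted p = 0.0013). Il10rb passed against Jak2 with only 0.13 ± 0.17 (adjusted p = 0.0332, higher in 10 of 12 mice), a mean gap smaller than its SD. The order was set and tested on the same values. Each gene was divided by 1 fixed exon length in all 12 mice, so these p-values cover the spread between mice only. Whether the merged exons match the transcripts present in these livers was not tested, and another length would shift a ratio equally in every mouse.

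**Figure D1:**
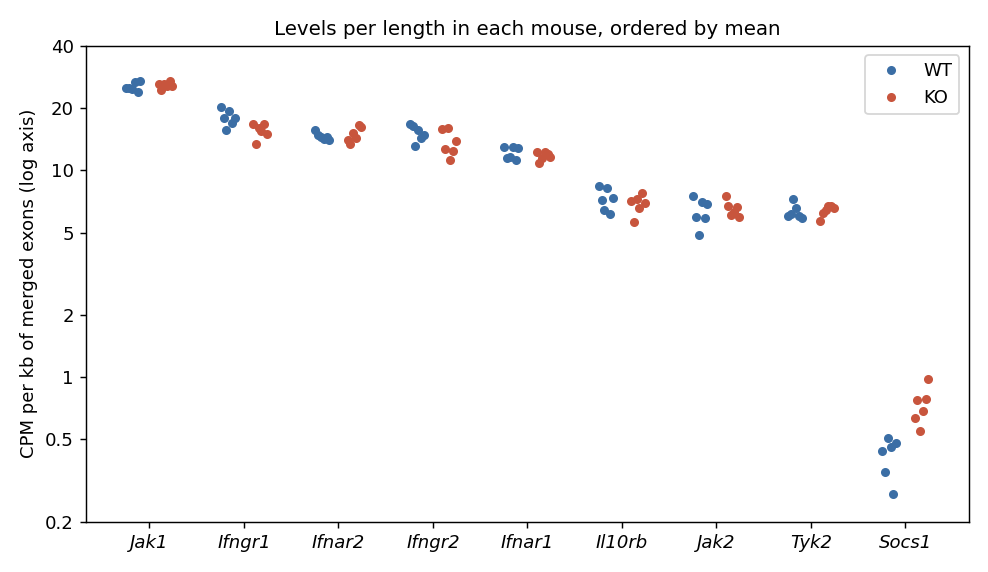
Level of each gene in each mouse in CPM per kb of merged exons, on a log axis, with genes ordered by their mean over 12 mice; blue points are the 6 WT mice and red points the 6 KO mice. Jak1 leads at 25.6 CPM per kb, the 4 interferon-specific chains lie between 12.0 and 16.8, and Socs1 lies at 0.576.

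The type I receptor chains gave closely overlapping values in the 2 genotypes. Ifnar1, the chain that carries TYK2, ranged from 66.9 through a median of 72.7 to 77.3 CPM in WT, and from 64.6 through 70.2 to 73.0 in KO. KO mouse 2 was the lowest of all 12, and the other 5 KO mice lay inside the WT range. The log2 difference of log2(CPM + 1), KO minus WT, was -0.05 (SE 0.05, 95% interval -0.17 to 0.07, limma adjusted p = 0.848). Ifnar2, the chain that carries JAK1, ranged from 46.6 through 48.3 to 52.5 CPM in WT and from 44.9 through 48.9 to 55.1 in KO. KO mice 5 and 6 were above every WT mouse and KO mice 1 and 2 below every one, so the KO values surrounded the WT values. Its difference was 0.03 (SE 0.06, 95% interval -0.10 to 0.15, adjusted p = 0.938).

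The interferon-gamma receptor chains had the most negative differences of the 9 genes, and neither passed. Ifngr1 was at 57.5, 50.9, 44.4, 55.3, 48.1 and 50.8 CPM in WT mice 1 to 6. In KO mice 1 to 6 it was at 47.7, 38.1, 45.4, 44.1, 47.5 and 42.8 CPM. KO mice 2, 4 and 6 lay below every WT mouse, and WT mouse 3 was the only WT mouse within the KO range. The means were 51.2 ± 4.74 and 44.3 ± 3.57 CPM (log2 difference -0.20, SE 0.07, 95% interval -0.36 to -0.05, adjusted p = 0.303). Ifngr1 was the only one of the 8 genes tested at a mean of 10 CPM or more with an unadjusted p under 0.05 (p = 0.0134; exact permutation p = 0.0195), where 9.80% of all 9186 genes had one.

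Ifngr2, the chain that carries JAK2, ranged from 49.6 through 57.4 to 63.4 CPM in WT and from 42.5 through 49.9 to 60.3 in KO. KO mice 2, 4 and 5 lay below every WT mouse, while KO mice 1 and 3 lay among the highest WT values. The difference was -0.16 (SE 0.09, 95% interval -0.35 to 0.04, adjusted p = 0.63). These are whole-liver values, in which fewer cells of a type and less RNA per cell cannot be told apart. The 5 macrophage and monocyte markers summed to 928 to 1463 CPM in WT and 682 to 980 in KO, and 2 of the 5 were lower at an unadjusted p under 0.05 (0 called). Most of that sum was Lyz2 (mean 810 CPM in WT and 536 in KO), while Csf1r (170 and 176) and Adgre1 (63.1 and 66.7) had means slightly higher in KO. The 5 Kupffer cell markers summed to 182 to 322 CPM in WT and 304 to 469 in KO. The 4 cholangiocyte markers summed to 41.1 to 93.0 CPM in WT and, without overlap, 19.9 to 37.6 in KO. Most of this sum was Sox9 (mean 34.2 CPM in WT and 20.3 in KO). Only 1 of the 4 was tested at 10 CPM, and it was lower at an unadjusted p under 0.05 (0 called). The share of all genes with every KO mouse below every WT mouse was not counted. The 5 stellate cell markers summed to a mean of 639 CPM in WT and 541 in KO, with 2 of 4 tested lower and 1 higher at an unadjusted p under 0.05 (0 called). The part of these cell types in the Ifngr1 and Ifngr2 values was not tested.

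Il10rb ranged from 23.3 through 27.6 to 32.0 CPM in WT and from 21.5 through 26.7 to 29.5 in KO. Only KO mouse 2 lay outside the WT range, and the difference was -0.08 (SE 0.09, 95% interval -0.27 to 0.11, adjusted p = 0.855). Il10rb pairs with a ligand-specific chain, and the chain for type III interferons, Ifnlr1, was low, at 0.838 to 1.47 CPM in WT and 0.410 to 0.992 in KO, and 4 KO mice lay under the WT range. Averaged over the 12 mice it was under 1 CPM and so in no limma fit. Its exact permutation p was 0.0108, unadjusted and for a gene named after its values were seen. The chain for interleukin-10, Il10ra, was at 22.2 ± 3.13 and 22.8 ± 3.23 CPM.

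Ifnar2, Il10rb, Ifnar1 and Ifngr2 lie in this order and on the same strand on chromosome 16, from 91372783 to 91565623 (mm10), within 193 kb. Only 574 bases separate the end of Ifnar2 from the start of Il10rb. The differences of these 4 neighbours were 0.03, -0.08, -0.05 and -0.16. An annotated read-through gene, Gm21970, shares sequence with Ifnar2 and Il10rb and was not analysed here, so how reads of their shared exons were assigned is unknown. Ifngr1 lies on chromosome 10 from 19591949 to 19610229.

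Jak1 varied least of the 9 genes. It ranged from 174 through 181 to 197 CPM in WT and from 177 through 186 to 196 in KO, and every KO mouse lay inside the WT range. Its coefficient of variation within groups was 4.12%, against a median of 9.66% over the 9186 genes, which were not matched to Jak1 for level. The log2 difference was 0.02 (SE 0.05, 95% interval -0.08 to 0.12, adjusted p = 0.948), which bounds the genotype ratio between 0.945-fold and 1.08-fold. Jak1 spans 101152367 to 101265282 on chromosome 4 and overlaps Raver2 on the other strand, which averaged 1.59 CPM.

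Jak2, which serves the interferon-gamma receptor and several growth hormone and cytokine receptors, ranged from 24.5 through 32.2 to 38.0 CPM in WT and from 30.0 through 32.6 to 37.6 in KO. All 6 KO mice lay inside the WT range, which WT mouse 3 extended downwards. The difference was 0.05 (SE 0.10, 95% interval -0.16 to 0.25, adjusted p = 0.92). Tyk2 ranged from 40.2 through 41.7 to 49.8 CPM in WT and from 38.9 through 44.8 to 46.4 in KO. WT mouse 3, the lowest for Jak2, was the highest for Tyk2. The Tyk2 difference was 0.02 (SE 0.06, 95% interval -0.11 to 0.16, adjusted p = 0.953). Jak2 lies on chromosome 19 from 29251828 to 29313080, and Tyk2 on chromosome 9 from 21104068 to 21131243. An antisense gene, 1700084C06Rik, overlaps Tyk2 and was not analysed here. Whether counting used the strand is not stated, so reads of the 2 strands cannot be told apart there.

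Of the 8 receptor and kinase genes, 0 of 8 were called by limma at an adjusted p of 0.05 and 1 had an unadjusted p under 0.05. Over all 9186 genes, 0.152% were called. The differences were negative for 4 of the 8 genes, as for 54.4% of the 9186, and had a median of -0.02, beside -0.01 over all. In the fit with a minimum of 1 CPM, in which 15648 genes were tested and 0.198% were called, Socs1 was not called either.

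**Figure D2:**
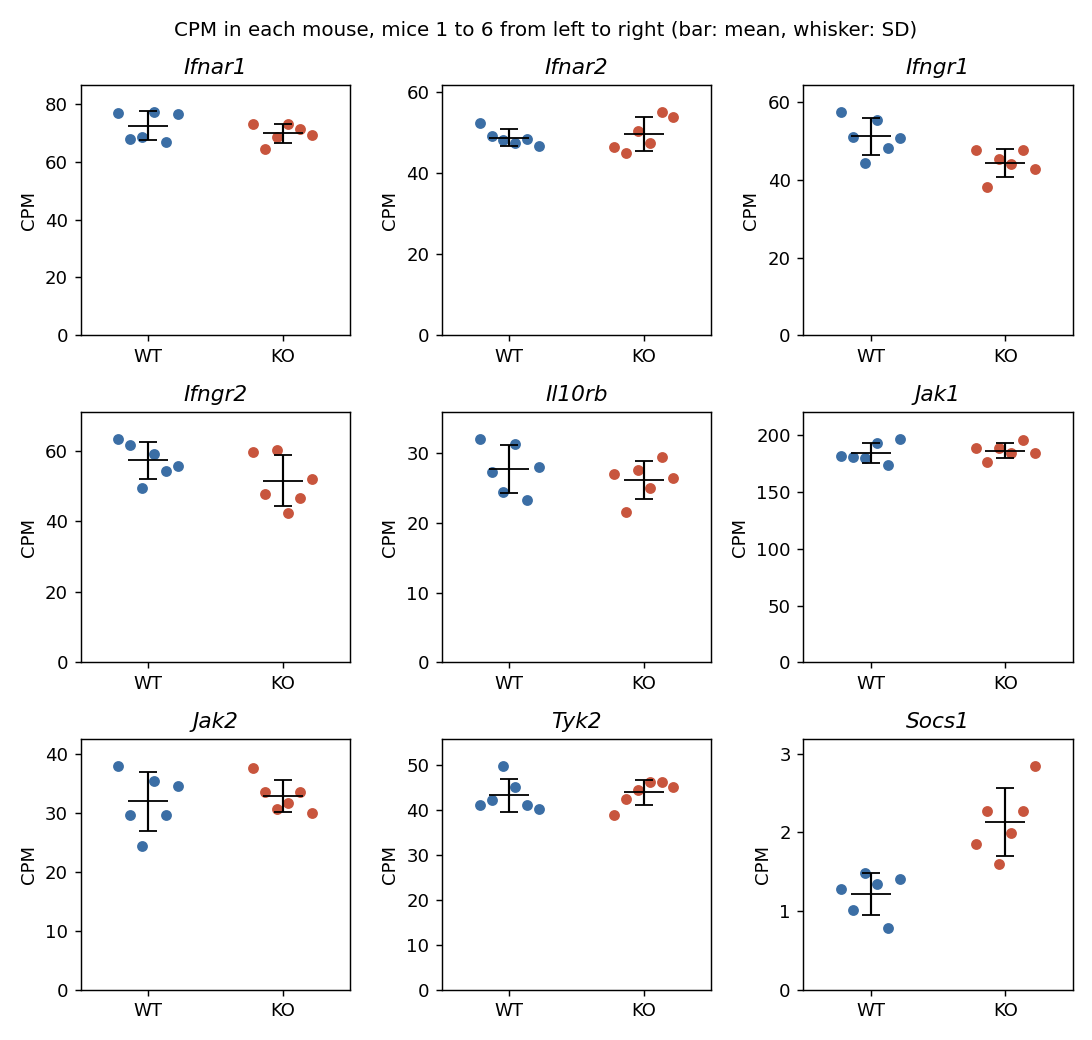
CPM of each gene in each mouse, with 1 panel per gene, WT in blue and KO in red, mice 1 to 6 from left to right within a group, the mean as a bar and the SD as a whisker; every axis starts at 0. Socs1 is the only panel in which the groups do not overlap, with a highest WT value of 1.48 and a lowest KO value of 1.59.

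Socs1 encodes the suppressor of cytokine signalling that blocks JAK1, JAK2 and TYK2, and it is itself induced by interferons. The gene lies on chromosome 16 from 10782240 to 10785536 on the minus strand. The 250 bases before its start, chr16:10785537-10785786 on GRCm38.p6, read 5′ to 3′ on the gene's strand, are shown from RefSeq because they hold the motif that interferon-activated factors bind, with all matched letters in capitals. The window upstream of Jak1 (chr4:101265224-101265473, minus strand), which holds no match, is shown for comparison.
Socs1: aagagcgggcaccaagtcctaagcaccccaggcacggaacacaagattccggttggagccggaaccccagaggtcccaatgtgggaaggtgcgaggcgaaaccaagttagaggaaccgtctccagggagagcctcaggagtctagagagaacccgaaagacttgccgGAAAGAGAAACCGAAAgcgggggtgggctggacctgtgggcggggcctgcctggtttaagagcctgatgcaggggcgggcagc
Jak1: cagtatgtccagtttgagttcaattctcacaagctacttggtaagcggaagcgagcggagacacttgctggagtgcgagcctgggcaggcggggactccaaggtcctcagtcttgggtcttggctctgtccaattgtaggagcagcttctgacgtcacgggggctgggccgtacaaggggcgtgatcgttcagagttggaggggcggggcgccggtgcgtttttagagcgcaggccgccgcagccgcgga

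The capitals in the Socs1 window are 2 overlapping matches to the core of the interferon-stimulated response element, searched on both strands as GAAA, any 2 bases, GAAA. The matched letters were GAAAGAGAAA, 83 to 74 bases before the start, and GAAACCGAAA, 77 to 68 bases before it. Of 32851 RefSeq windows of the same length, 2.98% held this motif. RefSeq gave a window for 8 of the 9 genes (all but Il10rb), and among them the motif was found in Socs1 only. The gamma-activated site, searched as TTCNNNGAA on both strands, was found in 7.02% of all windows and here in that of Ifnar2 only, as TTCCTGGAA from 214 to 206 bases before the start. Matches describe letters in these windows, and binding was not measured.

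Socs1 was at 1.28, 1.01, 1.48, 1.34, 0.789 and 1.40 CPM in WT mice 1 to 6. In KO mice 1 to 6 it was at 1.85, 2.27, 1.59, 1.99, 2.27 and 2.84 CPM. All 6 KO mice lay above all 6 WT mice, with KO mouse 6 highest and WT mouse 5 lowest. The nearest values across the groups, WT mouse 3 and KO mouse 3, rested on 78 and 122 counts, and their exact 95% Poisson intervals of 1.17 to 1.85 and 1.32 to 1.90 CPM overlapped. Such intervals cover counting error only, since PCR copies cannot be told from separate molecules. Of the 9 genes only Socs1 had every KO mouse above every WT mouse, a pattern that 0.320% of the 15648 genes showed.

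With a mean of 1.22 CPM in WT and 2.13 in KO, Socs1 fell under the minimum of 10 CPM and was tested in the limma fit with a minimum of 1 CPM. There its log2 difference of log2(CPM + 1) was 0.50 (SE 0.11, 95% interval 0.26 to 0.74, adjusted p = 0.0829), where its p ranked 99 of 15648. The exact permutation p was 0.00216, the smallest that 6 against 6 mice can give. The added 1 understates the change at this level: with an added 0.1 the difference was 0.77 (adjusted p = 0.079). Socs1 passed under quantile normalization (adjusted p = 0.0162), median-of-ratios scaling (0.0477) and library weights (0.0334), and in none of the 12 fits that left out 1 mouse.

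Markers of cell types that can carry Socs1 were summed in the same libraries. The 5 T and NK cell markers, all under 10 CPM, summed to 3.82 to 10.6 CPM in WT (mean 5.48) and 5.95 to 9.51 in KO (mean 7.93). The Kupffer cell markers had the sums given above, with 3 of 3 tested members higher at an unadjusted p under 0.05, as against 9.80% of all genes with one in either direction, and 0 called. The 5 endothelial markers summed to 217 to 277 CPM in WT and 220 to 316 in KO. The macrophage and monocyte markers went the other way, with a mean sum of 1139 CPM in WT and 856 in KO, mostly through Lyz2. No marker was at 0 in any library. The part of these cell types in the Socs1 values was not tested.

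**Figure D3:**
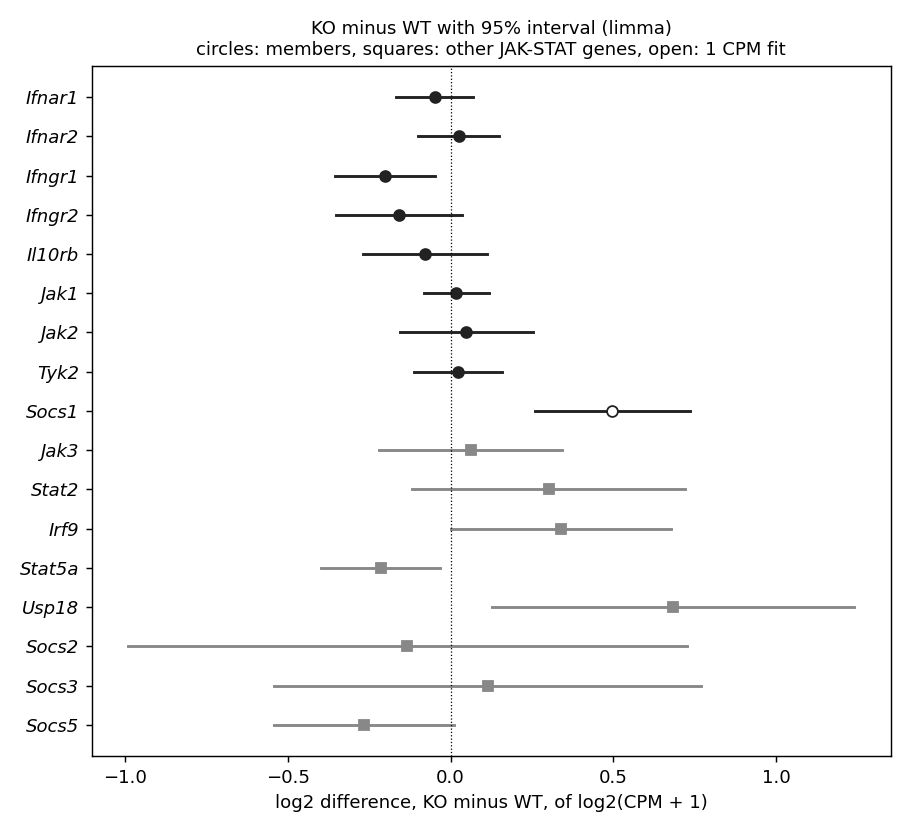
Log2 difference of log2(CPM + 1), KO minus WT, with its 95% interval from limma, for the 9 genes (circles, the open one from the fit with a minimum of 1 CPM) and 8 other JAK-STAT genes (squares). The receptor and kinase genes lie between -0.20 and 0.05, Socs1 at 0.50 and Usp18 at 0.68.

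The balance between partners was compared in each mouse as the difference of their log2 values, from which library scaling largely drops out. For Ifnar1 to Ifnar2 the CPM ratio per kb was 0.834 ± 0.067 in WT and 0.792 ± 0.0683 in KO, and for Ifngr1 to Ifngr2 it was 1.18 ± 0.0497 and 1.15 ± 0.164. The ratio of Jak1 to Jak2 per kb was 4.08 ± 0.591 in WT and 3.96 ± 0.328 in KO, and that of Jak1 to Tyk2 was 4.06 ± 0.391 and 4.04 ± 0.286. None of these 4 log2 ratios passed the exact two-sided permutation test of genotype (adjusted p = 0.725 to 0.957 over 5 ratios). The ratio of Socs1 to Jak1, the inhibitor to its target kinase, was higher in KO by 0.48 on the log2(CPM + 1) scale (exact p = 0.00433, adjusted p = 0.0216), with 5 KO mice above the WT range. Jak1 varied little, so this ratio restates the Socs1 values. The ratio passed after adjustment over 5 ratios, whereas Socs1 itself did not pass after adjustment over 15648 genes (limma adjusted p = 0.0829). With an added 10 in place of 1 the ratio lost its call (adjusted p = 0.152).

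Apart from genotype, 1 of the 36 pairs of these genes passed a test for varying together from mouse to mouse. After group means were subtracted, Ifngr1 and Il10rb were correlated over the 12 mice (Pearson r = 0.92, permutation p = 0.00039, adjusted p = 0.014 over 36 pairs; Spearman rho = 0.91, p = 0.00065, adjusted p = 0.0234). The correlation was 0.92 within WT and 0.91 within KO, and 0.88 without the 2 mice farthest from the median of Ifngr1. The next pairs were Ifnar1 with Il10rb (r = 0.78, rho = 0.77, permutation p = 0.00941, adjusted p = 0.1) and Ifnar1 with Ifngr1 (r = 0.77, rho = 0.77, permutation p = 0.0064, adjusted p = 0.1). The partner chains were less alike, with r = 0.13 for Ifnar1 with Ifnar2 and 0.55 for Ifngr1 with Ifngr2, neither passing (permutation, adjusted p = 0.804 and 0.213). Jak2 and Tyk2 had the most negative value, r = -0.67 (rho = -0.48, permutation p = 0.0266, adjusted p = 0.137), which was -0.38 without the 2 mice farthest from the median of Jak2. Of the 36 pairs, 1 passed for r and 27 were positive. The shares over pairs of all genes were not measured, and Ifngr1 and Il10rb each had a higher r with other genes, given below.

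**Figure D4:**
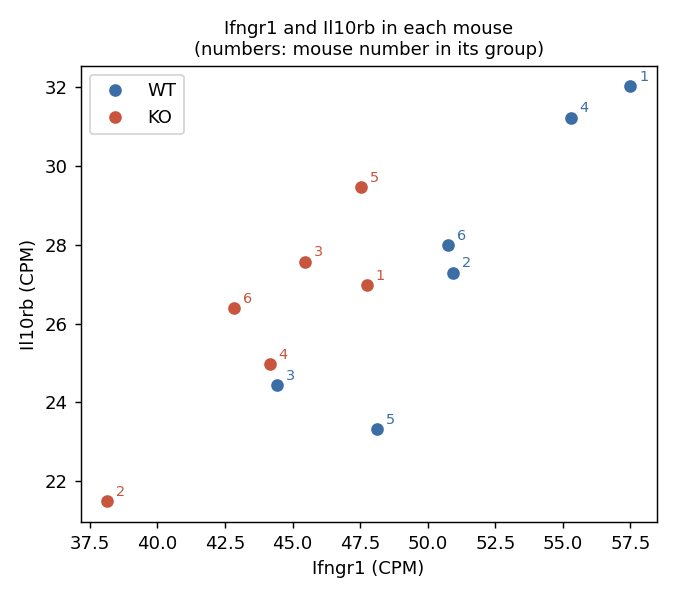
Il10rb against Ifngr1 in CPM, 1 point per mouse with its mouse number, WT in blue and KO in red. Within each genotype mice high in Ifngr1 are high in Il10rb (r = 0.92 in WT and 0.91 in KO), and the KO points, with Ifngr1 at 38.1 to 47.7 CPM, lie left of all WT points but that of mouse 3.

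For each gene the most similar transcripts were sought by the correlation of deviations from group means over the 12 mice, as a description of the best among 9160 genes. Il10rb was most like Fuca2 (r = 0.98), a fucosidase gene, Gpr137b (0.97) and Soat1 (0.96), the enzyme that esterifies cholesterol in macrophages. Ifngr2 was most like Nceh1 (0.97), which hydrolyses cholesterol esters, followed by Hist1h4h (0.91) and Stmn1 (0.90). Ifngr1 was most like the laminin receptor subunit Itga6 (0.96), Vezf1 and Rab31 (0.95 each).

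The kinases had other companions. Jak2 was most like the chromatin genes Brwd3 (0.97) and Atrx (0.96) and the adhesion gene Lpp (0.97), and Tyk2 was most like the deubiquitinase gene Bap1 (0.96), Dhx37 (0.94) and Klc4 (0.93). Jak1 was most like Pgm2 (0.92), Hnrnpa2b1 (0.91) and Bcas2 (0.90). Ifnar1 was most like Mrpl3 (0.95), Sde2 (0.94) and Fam49a (0.93), and Ifnar2 like Ndufa1 (0.93), Lrpap1 (0.92) and Rps13-ps1 (0.91). For Socs1, sought among 15589 genes at a minimum of 1 CPM, the closest was Nod2 (0.96), a sensor of bacterial wall fragments, followed by Cyp21a2-ps and Zfp746 (0.95 each).

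Each gene was also set against 12 interferon-gamma targets and 11 type I interferon targets, none of them among the 9 genes, within each genotype. Of these 36 relations, 0 passed (exact permutation of pairings, two-sided; 0 had an unadjusted p under 0.05 for r). The smallest p that 6 mice allow is 0.00139, so a single relation could not have passed after adjustment over 36. Socs1 against the interferon-gamma targets gave r = 0.72 within KO (rho = 0.83, exact p = 0.108 for r and 0.0583 for rho, adjusted p = 0.615 and 0.878), and 0.89 without KO mice 2 and 3, the farthest from the median. Within WT it gave r = 0.28 (rho = 0.14, exact p = 0.613 and 0.803, adjusted p = 0.788 and 0.932), and -0.72 without WT mice 1 and 3. With type I targets the values were 0.66 in KO (rho = 0.77, exact p = 0.151 and 0.103, adjusted p = 0.615 and 0.878) and 0.08 in WT (rho = 0.09, exact p = 0.847 and 0.919, adjusted p = 0.871 and 0.974). Without the 2 farthest mice these were 0.55 in KO and -0.41 in WT. Ifngr1 within KO had the opposite sign, with r = -0.70 for interferon-gamma targets (rho = -0.71, exact p = 0.121 and 0.136, adjusted p = 0.615 and 0.878), and -0.34 without KO mice 2 and 3. Ifnar1, Ifnar2, Ifngr2, Il10rb and Jak1 were negative there too, at r = -0.62 to -0.15. Without KO mice 2 and 3, Ifnar2 (0.98), Il10rb (0.46) and Jak1 (0.30) turned positive, while Ifnar1 (-0.87) and Ifngr2 (-0.26) stayed negative. The smallest exact p for r was that of Ifngr2 with type I targets within KO (r = -0.72, exact p = 0.0972, adjusted p = 0.615), with r = -0.79 without KO mice 2 and 3.

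**Figure D5:**
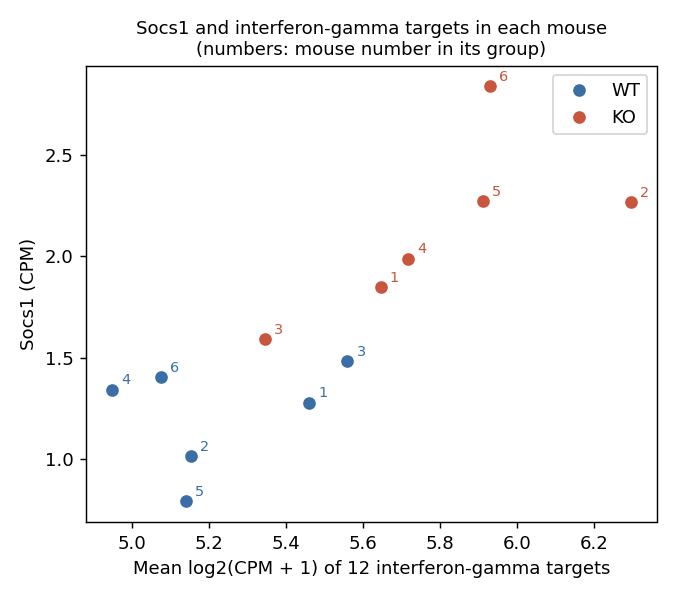
Socs1 in CPM against the mean log2(CPM + 1) of 12 interferon-gamma targets, 1 point per mouse with its mouse number, WT in blue and KO in red. KO points run from mouse 3 (1.59 CPM) to mouse 6 (2.84 CPM) with r = 0.72 on log2 values, and all lie above the WT points, whose r is 0.28.

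Around these genes, the JAK-STAT pathway was taken from a list of 69 ligands, other receptors, kinases, STAT factors and negative regulators, of which 44 were measured and the others not analysed here. Over the 35 tested at a minimum of 10 CPM, 0 rose and 0 fell by limma, 3 were higher and 1 lower at an unadjusted p under 0.05, a share near the 9.80% of all genes, and the median difference was -0.02. Among the higher ones were Usp18 and Irf9. Usp18, which blocks IFNAR2 from inside the cell and, like Socs1, is an interferon-induced brake, was at 31.4 ± 10.3 and 52.4 ± 20.8 CPM (log2 difference 0.68, adjusted p = 0.347). Irf9, the DNA-binding partner of STAT2, was at 43.2 ± 8.56 and 55.3 ± 11.9 CPM (0.34, adjusted p = 0.509). The lower one was Stat5a, a factor of growth hormone signalling (31.8 ± 3.76 and 27.3 ± 2.87 CPM, -0.22, adjusted p = 0.384).

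The remaining roles held no call. Among other suppressors, Socs5 averaged 16.4 ± 3.86 CPM in WT mice and 13.3 ± 1.65 in KO mice (adjusted p = 0.536). Socs3 spanned 15.4 to 55.0 CPM in WT and 20.9 to 50.2 in KO, and Socs2 spanned 19.1 to 55.5 and 15.8 to 80.6. Jak3, the kinase of lymphoid cytokine receptors, was at 23.2 ± 3.85 and 24.3 ± 5.11 CPM (adjusted p = 0.931). Of the other receptors, Osmr, the oncostatin M receptor, was at 21.1 ± 5.50 and 16.7 ± 2.64 (adjusted p = 0.568), and Ghr, the growth hormone receptor, at 275 ± 44.0 and 299 ± 29.7 (0.759). Of 26 ligands 3 were measured, all at a few CPM or less. Lif was at 2.51 ± 0.736 and 1.81 ± 0.366 CPM (adjusted p = 0.421 in the fit at 1 CPM), and Ifnk spanned 0.657 to 2.18 and 0.613 to 1.30 (0.873).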

How the data were processed

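The deposited table gives CPM for 12 liver libraries, 1 per mouse; the authors scaled each column to 1000000, as the values show. Per the submitters' processing notes, mm10, Partek 10.0, STAR 2.7.3a and DESeq2 1.14.1 were used, with no role given. No source used here gives the counting tool, its annotation or its strand setting. Per the labels' protocols, libraries were rRNA-depleted and directional, while the molecule label says polyA RNA. Depth was read from the common step of low values, of which 71.8% to 77.0% lay within 0.02 steps of a whole multiple (4% if evenly spread). The rest were fractional, so no count test was run. IDs were matched to symbols, positions and merged exons of GENCODE M21 (mm10) for 20055 of 20143 genes.

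The 9186 genes averaging 10 CPM or more were tested as log2(CPM + 1) with limma 3.58.1 in R 4.3.3 (mean trend, two-sided, Benjamini-Hochberg over all genes tested, threshold 0.05, no covariate). Socs1, under that minimum, was read from the same fit at 1 CPM. Nothing says that the mice are of separate litters, so p-values measure the spread between these mice. On simulated data of 9186 genes and 6 against 6 libraries, limma recovered 26% of 1.25-fold and 98% of 1.5-fold changes. Of its 169 calls there 7 were false, and it made 0 calls with nothing changed. Every simulated gene was drawn independently of the others, with the same relative spread beyond counting error. Whether the shares found there hold for the 9 genes, with coefficients of variation within groups of 4.12% to 21.4%, was not tested. Genes, gene lists and tests were chosen with earlier results of these data known. Named genes are the 9 genes, Hsd17b13, the 3 most alike of each, and in each pathway role the called genes or the 2 with the smallest p; the likeness of Socs1 and the values of Ifnlr1, Il10ra, Irf9, Socs2 and Socs3, and Stat2 in a plot, were added after the data were seen. The values of 1 gene that this rule names are not reported here. Promoter windows came from RefSeq (GRCm38.p6), and BLASTN 2.17.0 (at least 95% identity over 500 bases) found no copy of the 9 genes in the table. Alternatives were pseudocounts, filters, scalings, the variance model, library weights, a replicate block and leaving out mice.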

Additional observations from a re-analysis of the deposited data

How the results depend on the processing

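The 14 genes called across the liver became 29 with no filter on low values, 31 at a minimum of 1 CPM, 4 at 100 CPM, 35 with library weights and 89 without KO mice 1 and 3, and 9 to 25 when 1 mouse was left out (9 without WT mouse 3, 25 without KO mouse 3). Among the 9 genes the count of 0 became 1, Socs1, under quantile normalization, median-of-ratios scaling, library weights and without KO mice 1 and 3; it stayed at 0 in the 12 fits without 1 mouse. The pathway list went from 0 to 2 calls without KO mice 1 and 3. Those mice were picked after seeing the data for low type I interferon targets, so calls of interferon-related genes without them are conditioned on that choice and support nothing. The Socs1 difference was positive in all 23 alternatives, at 0.11 (pseudocount 10) to 0.77, and Ifngr1 and Ifngr2 were negative in all 22 that kept them. Values near 0 changed sign: Jak2 with library weights (-0.0046) and over -0.023 to 0.10 without 1 mouse, Ifnar2 over -0.0050 to 0.053, the Jak1 to Jak2 ratio over -0.085 to 0.034, the Jak1 to Tyk2 ratio over -0.051 to 0.035, and the Ifngr1 to Ifngr2 ratio without KO mice 1 and 3 (0.032). The Socs1 to Jak1 ratio lost its call with a pseudocount of 10 (0.10, adjusted p = 0.152), which exceeds the level of Socs1. Within WT, the correlation of Socs1 with the target scores turned to -0.72 and -0.41 without the 2 farthest mice. With the mouse number as a replicate block 11 genes were called and 0 of the 9 (Socs1 adjusted p = 0.121). Whether the numbers pair mice was not tested. Correlations of same-numbered mice ran from -0.51 to 0.39, and 2 of 6 WT mice correlated best with their own number. Socs1 rested on 48 to 164 counts per library, a counting error of up to 14.4%.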
